A study of Homo sapiens with 16 samples.

Results

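The enzymes of glycolysis, the pentose phosphate pathway and the tricarboxylic acid (TCA) cycle were examined in ribosome profiling and RNA-seq data of HCT-116 cells, a human colorectal cancer cell line. The set is a fixed list of 55 gene symbols, with 19 enzymes of glycolysis, 8 of the pentose phosphate pathway and 28 of the TCA cycle and its feeding reactions. Of these, 52 had a row among the 8657 genes of the lentiCTRL table and 51 among the 7433 genes of the complemented table. PGAM1, ENO3 and PC had no row in either table, and PDK1 had none in the complemented table. Members were found by symbol, a step that uses no measured value. The list itself was proposed with earlier results of these data known.

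All cells came from 1 clonal line that expresses the auxin receptor OsTIR1 from a CMV promoter at the AAVS1 locus and carries a mini auxin-inducible degron (mAID) on endogenous DDX3X, an X-linked RNA helicase that acts in translation. The lentiCTRL cells received the control lentivirus and either DMSO or 500 µM indole-3-acetic acid (IAA), the auxin that triggers degradation of the tagged protein, for 48 h. The lentiDDX3X and lentiDDX3Y cells expressed a FLAG-tagged, partly codon-optimized cDNA of DDX3X or of its Y-linked paralog DDX3Y, were sorted for mCherry2, and both received IAA, so no DMSO library stands among them. Each of the 4 conditions had 2 replicates, each a separate dish, and each replicate gave a ribosome profiling (ribo) and an rRNA-depleted RNA library, 16 libraries in all.

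The measurement used here is the base mean, the mean over libraries of the reads on the coding sequence after division by the size factor of the library. Each table gives 1 RNA and 1 ribo base mean for a gene, over 4 RNA and 4 ribo libraries that join both conditions and both replicates. The values in single libraries, their spread and the depth per library cannot be read from a base mean, and no per-library value is used here. The effect of IAA and the difference between DDX3X and DDX3Y were therefore not tested, and no value below compares conditions. The lentiCTRL and complemented tables were normalized separately, so their values stand side by side without a test. Errors are counting errors only: 1 standard error (SE) expected from the number of reads in 4 libraries, taking size factors as near 1. They do not cover the spread between replicates. Where a pair of values is given for a gene with no table named, the former is from the lentiCTRL table and the latter from the complemented table.

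Of the epithelial markers fixed for this line, EPCAM, CDH1, KRT8, KRT18, KRT19 and CDX2 had a row in both tables and VIL1 in neither. Of the markers of other cell types, PTPRC, VIM and PECAM1 had no row in either table. COL1A1 had a row in the lentiCTRL table alone, at a ribo base mean of 10.6, close to the lowest value of that table, 10.0. CDX2 had less RNA there than COL1A1, 348 against 506. The ribo base mean of CDX2 was low as well, 19.7 there and 23.1 in the complemented table. The lowest ribo base mean of the complemented table was just above 20. Because of these lower limits, a gene with little RNA appears only if it has many footprints for its RNA. Over all genes, Spearman's rho of footprint density, the log2 ratio of ribo to RNA base mean, with log2 RNA base mean was -0.41 (n = 8657 genes, lentiCTRL) and -0.42 (n = 7433, complemented), a relation across genes that share libraries.

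Glycolysis converts glucose to pyruvate in the cytosol and yields ATP and NADH, and lactate dehydrogenase turns pyruvate into lactate. The pentose phosphate pathway branches off from glucose phosphate and supplies NADPH and the ribose of nucleotides. Pyruvate enters the mitochondrion, where the pyruvate dehydrogenase complex makes acetyl-CoA for the TCA cycle, which feeds electrons to the respiratory chain. Rapidly growing cancer cells are known for high glycolytic flux, and several of the glycolytic genes are among the most highly expressed in such cells. Many of these genes have processed pseudogenes, intronless copies of their mRNA elsewhere in the genome, and short reads from a gene and such a copy can be hard to tell apart.

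Ribosome footprints are about the length of the stretches below, 28 nt, and their assignment to a gene rests on sequence of this length. The first 28 coding bases of 3 glycolytic or TCA genes are shown with the same stretch of a pseudogene in hg38 (GENCODE annotation), because these genes recur in the results. Capitals mark the bases that differ within a pair, and sequences read 5′ to 3′ on the strand of the gene. The pseudogene of GAPDH is GAPDHP1, on the minus strand at chrX:39788109-39788136. That of TPI1 is TPI1P1, on the plus strand at chr1:76699789-76699816. CS has a transcribed processed pseudogene on the plus strand at chr19:18030629-18030656.
GAPDH: atggggaaggtgaaggtcggagtcaacG
GAPDHP1: atggggaaggtgaaggtcggagtcaacA
TPI1: atggcgccctccaggaagttcttcgttg
TPI1P1: atggcgccctccaggaagttcttcgttg
CS: atggctttacttactgcggccgcccggc
CS pseudogene: atggctttacttactgcggccgcccggc
The GAPDH pair differed at 1 of the 28 bases, and the TPI1 and CS pairs at 0. The first 28 coding bases of LDHA, not shown, differed from those of its pseudogene LDHAP4 at 4. Over the whole coding sequence, aligned without gaps, TPI1P1 was identical to TPI1 at 98.1% of bases and the CS pseudogene to CS at 97.6%. GAPDHP1 was identical to GAPDH at 78.7% of bases in such an alignment. The study's list of read numbers has a column of uniquely mapped reads, but how reads that match several loci were counted is not given in the sources used here.

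Isoenzymes of the set shared few or no stretches of 28 nt with each other. LDHA and LDHB, the muscle-type and heart-type subunits of lactate dehydrogenase, are shown over 28 coding bases in the middle of the sequence, counted from 1 at the start codon as bases 484 to 511 of LDHA and 487 to 514 of LDHB.
LDHA: ggTtgCaatctggattcAgcCCgattCc
LDHB: ggAtgTaatctggattcTgcTAgattTc
This pair differed at 6 of 28 bases, and LDHA and LDHB shared 0 of the 969 windows of 28 nt in the LDHA coding sequence. Only 4 pairs within isoenzyme families shared any such window. ENO1 and ENO2 shared 23, ALDOA and ALDOC 17, PFKL and PFKP 8, and HK1 and HK2 shared 3.

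To compare ribosome occupancy between genes, the footprint density was taken as the log2 ratio of ribo to RNA base mean, minus the median of this ratio over all genes of the table. A density of 0 is that of the median gene, which had 4.57 ribo per 100 RNA in the lentiCTRL table and 5.56 in the complemented table. The lower and upper quartiles of all genes were -0.76 and 0.60 in the former and -0.61 and 0.50 in the latter. The 52 enzymes had a median footprint density of 0.54 in the lentiCTRL table, with 43 above 0 and 9 below. In the complemented table the median was 0.37 over 51 enzymes, with 45 above 0 and 6 below. Of the enzymes above 0, 40 and 38 exceeded it by more than 1.96 counting SE, and 5 and 4 lay below 0 by more than that. The share of all genes beyond this limit was not computed, so these counts do not set the enzymes apart. The upper quartile of all genes was exceeded by 23 enzymes in the lentiCTRL table and by 19 in the complemented table. Together the enzymes took 2.43% of the ribo and 1.46% of the RNA base means summed over all genes in the lentiCTRL table, and 2.48% and 1.73% in the complemented table. The plot of RNA against ribo base means shows most enzymes above the line of the median gene.

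**Figure D1:**
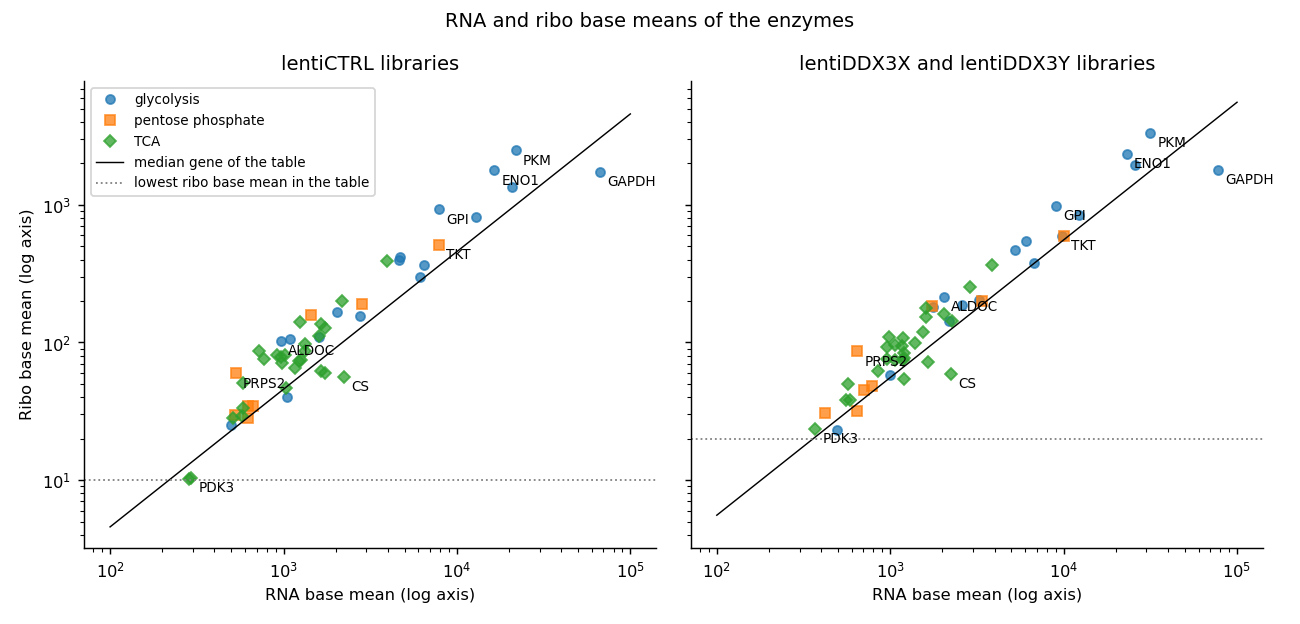
RNA base mean (x, log axis) and ribo base mean (y, log axis) of each enzyme in the lentiCTRL libraries (left) and the lentiDDX3X and lentiDDX3Y libraries (right), colored by pathway, with the line of the median gene and the lowest ribo base mean of each table. GAPDH and CS lie below the line in both panels, and PDK3 lies near the lowest ribo value.

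Glycolytic enzymes were the most abundant of the 3 pathways. Per 1000 nt of coding sequence, their median RNA level stood at the 94.7th percentile of all genes in the lentiCTRL table and their median ribo level at the 96.2nd. The complemented table gave 95.1 and 96.0. Ribo levels above the 90th percentile were found for 10 of 17 glycolytic enzymes in the lentiCTRL table and 9 of 17 in the complemented table. Their median footprint density was 0.58 and 0.36, with 15 enzymes above 0 and 2 below in each table.

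Hexokinase traps glucose in the cell by phosphorylating it. HK1, the broadly expressed form, had an RNA base mean of 1603 and a ribo base mean of 109.7 in the lentiCTRL table, and 2174 and 143 in the complemented table. HK2, the form induced in many tumors, had RNA base means of 498 and 493 and ribo base means of 25 and 23.1. Both genes have a coding sequence of 2751 nt. HK1 thus made up 76.3% ± 0.46 (counting SE) of the hexokinase RNA of this pair and 81.4% ± 1.7 of its footprints in the lentiCTRL table, and 81.5% ± 0.38 and 86.1% ± 1.3 in the complemented table. The footprint share of HK1 exceeded its RNA share in both tables. HK2 shared 38% of its 28-nt windows with other loci, and with the length restricted to unshared windows the footprint share of HK1 was 73.1% and 79.3%, against RNA shares of 73.9% and 79.5%. Counted this way, the footprint share of HK1 was no longer above its RNA share. HK2 had a density of 0.14 ± 0.15 in the lentiCTRL table and of -0.25 ± 0.15 in the complemented table, where it was the second lowest of glycolysis. Both densities lie within 1.96 counting SE of the median gene.

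GPI, which interconverts glucose phosphate and fructose phosphate, had the highest footprint density of glycolysis. Its RNA base mean was 7883 and its ribo base mean 931 in the lentiCTRL table, a density of 1.37 ± 0.025. GPI had 9064 and 987 in the complemented table, a density of 0.97 ± 0.024. None of its 28-nt windows was found elsewhere in the genome. PKM was close, at 1.32 ± 0.015 and 0.92 ± 0.013. With each base mean divided by its share of unshared windows, PKM, ENO1 and PGK1 stood above GPI in both tables, PKM at 1.74 and 1.34. This division cannot move GPI and can only raise the others, so the rank of GPI depends on how shared sequence is counted.

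Phosphofructokinase, the committed step of glycolysis, has 3 genes in the set. PFKP, the platelet type, was the most abundant, with RNA base means of 4606 and 5215 and ribo base means of 396 and 472. PFKL, the liver type, had 2761 and 3241 RNA and 155 and 203 ribo. PFKM, the muscle type, had 2042 and 2605 RNA and 165 and 186 ribo. Per length, PFKP made up 48.8% ± 0.26 of the RNA and 55.2% ± 0.93 of the footprints in the lentiCTRL table, and 47% ± 0.24 and 54.7% ± 0.85 in the complemented table. The shares of PFKL differed in the other direction, from 29.4% ± 0.24 of the RNA to 21.7% ± 0.77 of the footprints, and from 29.4% ± 0.22 to 23.7% ± 0.72. PFKL shared 0.35% of its 28-nt windows with other loci, PFKP 0.34% and PFKM none. The footprint densities were 0.91 ± 0.038 and 0.70 ± 0.035 for PFKP, 0.82 ± 0.058 and 0.36 ± 0.055 for PFKM, and 0.29 ± 0.06 and 0.17 ± 0.052 for PFKL. PFKFB3, which makes the allosteric activator of phosphofructokinase, was among the 3 lowest of glycolysis in the lentiCTRL table, at 1053 RNA and 39.8 ribo and a density of -0.27 ± 0.12. Its base means in the complemented table were 994 and 57.9 and its density was 0.07 ± 0.097, within 1.96 counting SE of 0.

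Aldolase splits the phosphorylated sugar, and its A form dominated. ALDOA had RNA base means of 20858 and 25906 and ribo base means of 1348 and 1947, with densities of 0.50 ± 0.02 and 0.43 ± 0.017. ALDOC, known from brain, had 962 and 2045 RNA and 103 and 214 ribo. Its density of 1.22 ± 0.075 and 0.91 ± 0.052 was among the 4 highest of glycolysis in the lentiCTRL table. ALDOC accordingly held 5.03% ± 0.079 of aldolase RNA and 8.05% ± 0.38 of aldolase footprints in the lentiCTRL table, and 8.31% ± 0.088 and 11.2% ± 0.36 in the complemented table. The length used for ALDOA is that of its GENCODE canonical transcript, a longer form of 1254 nt.

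The later steps of glycolysis held the most abundant enzymes and the lowest density of the pathway. TPI1, which interconverts the products of aldolase, had RNA base means of 6135 and 6711 and ribo base means of 298 and 375. Its densities of 0.09 ± 0.043 and 0.01 ± 0.038 were close to the median gene, and 68.9% of its 28-nt windows were found elsewhere. GAPDH, the glyceraldehyde phosphate dehydrogenase often used as a loading control, had by far the most RNA of the set, 66878 and 77428. Its ribo base means were 1736 and 1792, lower than those of PKM in both tables. GAPDH thus had 2.6 and 2.31 ribo per 100 RNA, and its density was the lowest of glycolysis, -0.82 ± 0.018 in the lentiCTRL table and -1.26 ± 0.017 in the complemented table. Of its 28-nt windows, 70.7% were found elsewhere in hg38, the highest share in the set, but only 9.35% of its 65-nt windows, the length of the RNA reads. Dividing each base mean by the share of unshared windows of its read length, which assumes that every read from a shared window was lost, gave GAPDH a density of 0.81 and 0.36. This division was made for the members alone and can only raise a member, so the direction of the move is fixed, and its place against the uncorrected median gene is a value under that assumption.

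PGK1, which makes the first ATP of the pathway, had 4698 and 6103 RNA and 419 and 547 ribo, with densities of 0.96 ± 0.037 and 0.69 ± 0.032. Of its 28-nt windows, 34.6% were found elsewhere. ENO1, the ubiquitous enolase, had 16372 and 23101 RNA and 1783 and 2348 ribo. Its densities were 1.25 ± 0.018 and 0.87 ± 0.016, among the 3 highest of glycolysis in the lentiCTRL table. ENO2, known as the neuronal enolase, was measured at 1093 and 1769.6 RNA and 105 and 183 ribo. The densities of ENO2 were 1.07 ± 0.074 and 0.89 ± 0.056, and ENO2 made up 6.26% ± 0.092 of enolase RNA and 5.57% ± 0.26 of enolase footprints in the lentiCTRL table. In the complemented table the shares were 7.12% ± 0.082 and 7.21% ± 0.26. ENO1 shared 21.5% of its 28-nt windows with other loci and ENO2 shared 2.04%. Per unshared length ENO2 held 4.52% and 5.86% of the footprints against 6.11% and 6.95% of the RNA. PKM, pyruvate kinase, had the highest ribo base mean of the set, 2499 and 3326, at RNA base means of 21842 and 31674. Its density was 1.32 ± 0.015 and 0.92 ± 0.013, although 25.7% of its 28-nt windows were found elsewhere.

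Lactate dehydrogenase regenerates NAD from NADH, and both of its genes were abundant. LDHA had RNA base means of 6435 and 9846 and ribo base means of 367 and 591. LDHB had 12828 and 12242 RNA and 821 and 840.0 ribo. LDHB made up 66.5% ± 0.17 of the RNA and 69% ± 0.67 of the footprints in the lentiCTRL table, and 55.3% ± 0.17 and 58.5% ± 0.65 in the complemented table. The order of the footprint shares in the complemented table depends on the sequence counted: LDHA shared 53% of its 28-nt windows with other loci and LDHB 16.4%, and per unshared length the footprint share of LDHB was 55.5% and 44.2%. The RNA shares of LDHB per unshared length were 62.9% and 51.4%, so by that measure its footprint share was below its RNA share in both tables. The densities were 0.32 ± 0.039 and 0.11 ± 0.031 for LDHA and 0.48 ± 0.026 and 0.30 ± 0.026 for LDHB.

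**Figure D2:**
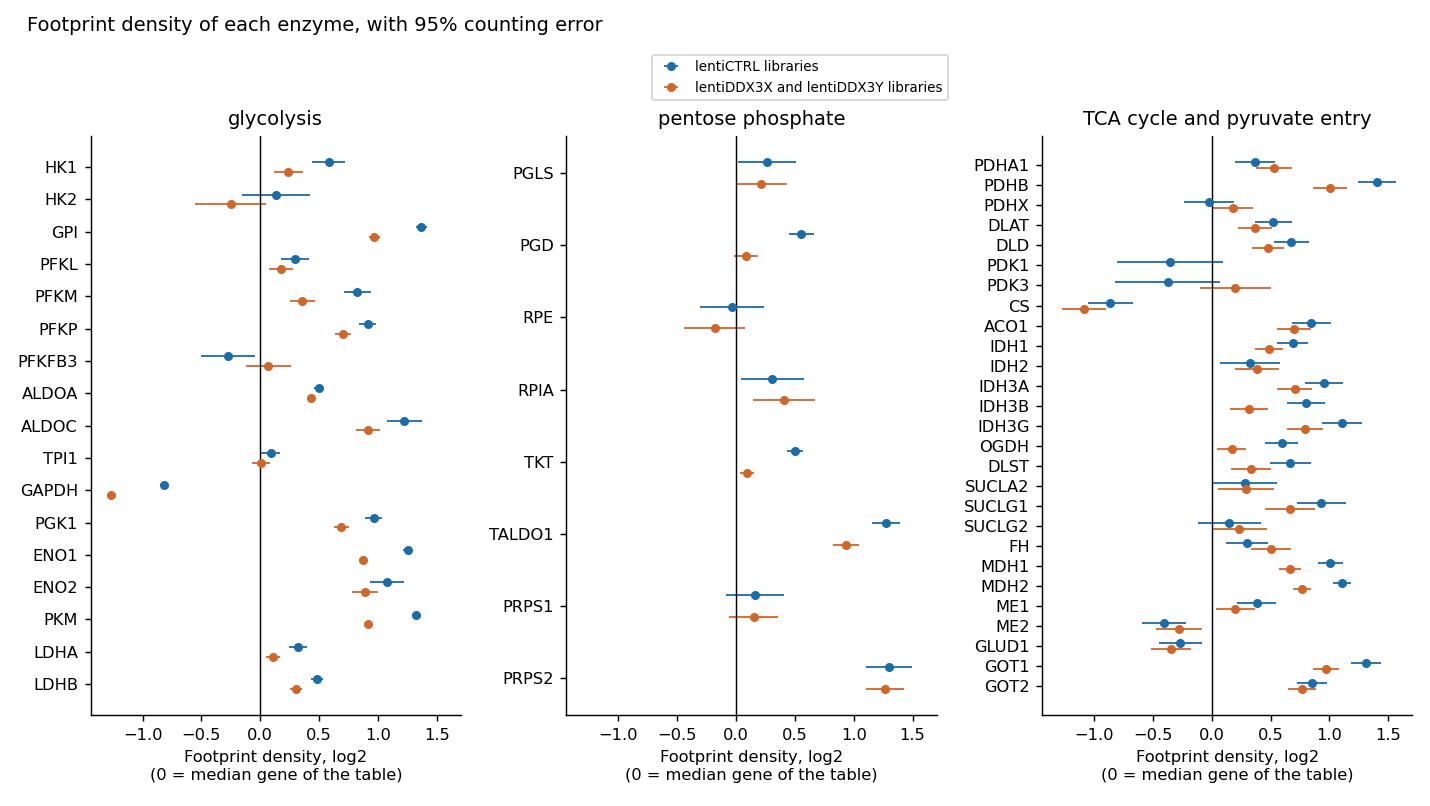
Footprint density (log2, 0 is the median gene of the table) of each enzyme in pathway order, in the lentiCTRL libraries (blue) and the lentiDDX3X and lentiDDX3Y libraries (orange), with bars of 1.96 counting SE that do not include replicate spread. Most points lie to the right of 0, and GAPDH and CS lie farthest to the left in both.

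The pentose phosphate enzymes spanned from middling to high levels. Their median RNA level per length stood at the 65.4th percentile in the lentiCTRL table and the 61.1st in the complemented table, and their median ribo level at the 72.3rd and 70.3rd. The median density was 0.40 and 0.18, with 7 of 8 enzymes above 0 in each table. In the oxidative branch, which makes NADPH, PGLS, the phosphogluconolactonase, had 626 and 702 RNA, 34.3 and 45.3 ribo and densities of 0.26 ± 0.13 and 0.22 ± 0.11. PGD, the phosphogluconate dehydrogenase, had 2842 and 3384 RNA and 191 and 199.8 ribo. Its density was 0.56 ± 0.054 in the lentiCTRL table and 0.09 ± 0.053 in the complemented table, within 1.96 counting SE of 0 in the latter. PGD had 23.1% of its 28-nt windows elsewhere. After division by the unshared shares, which can only raise a member, its densities were 0.88 and 0.41.

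In the non-oxidative branch, which exchanges carbon with glycolysis, transketolase was the most abundant. TKT had 7893 and 10045 RNA and 511 and 595 ribo, and densities of 0.50 ± 0.033 and 0.09 ± 0.03. TALDO1, transaldolase, had less RNA, 1441 and 1733, and 159.6 and 184 ribo. TALDO1 was among the 2 highest densities of the pathway, 1.28 ± 0.06 and 0.93 ± 0.056, with no window shared. RPE, the ribulose phosphate epimerase, had 628 and 643 RNA and 28.1 and 31.5 ribo. It was the single enzyme of the pathway below 0, at -0.03 ± 0.14 and -0.18 ± 0.13, both within 1.96 counting SE of 0, and 53.1% of its 28-nt windows were found elsewhere. RPIA, the ribose phosphate isomerase, had 524 and 420.1 RNA, 29.6 and 31 ribo and densities of 0.31 ± 0.14 and 0.41 ± 0.13.

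Phosphoribosyl pyrophosphate synthetase hands the ribose on to nucleotide synthesis, and its 2 genes differed in footprint density. PRPS1 had 671 and 780.2 RNA and 34.3 and 48.1 ribo, a density of 0.16 ± 0.13 and 0.15 ± 0.11. PRPS2 had 529.7 and 647 RNA but 59.6 and 86.4 ribo, a density of 1.30 ± 0.099 and 1.26 ± 0.083, the highest of the pathway in the lentiCTRL table and of the whole set in the complemented table. Both coding sequences are 954 nt long. PRPS2 was thus the minor form in RNA, 44.1% ± 0.72 and 45.3% ± 0.66, and the major form in footprints, 63.5% ± 2.5 and 64.2% ± 2.1. PRPS1 shared 23.7% of its 28-nt windows with other loci and PRPS2 none. Per unshared length PRPS2 still made up 57% and 57.8% of the footprints, against 43.5% and 44.7% of the RNA.

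**Figure D3:**
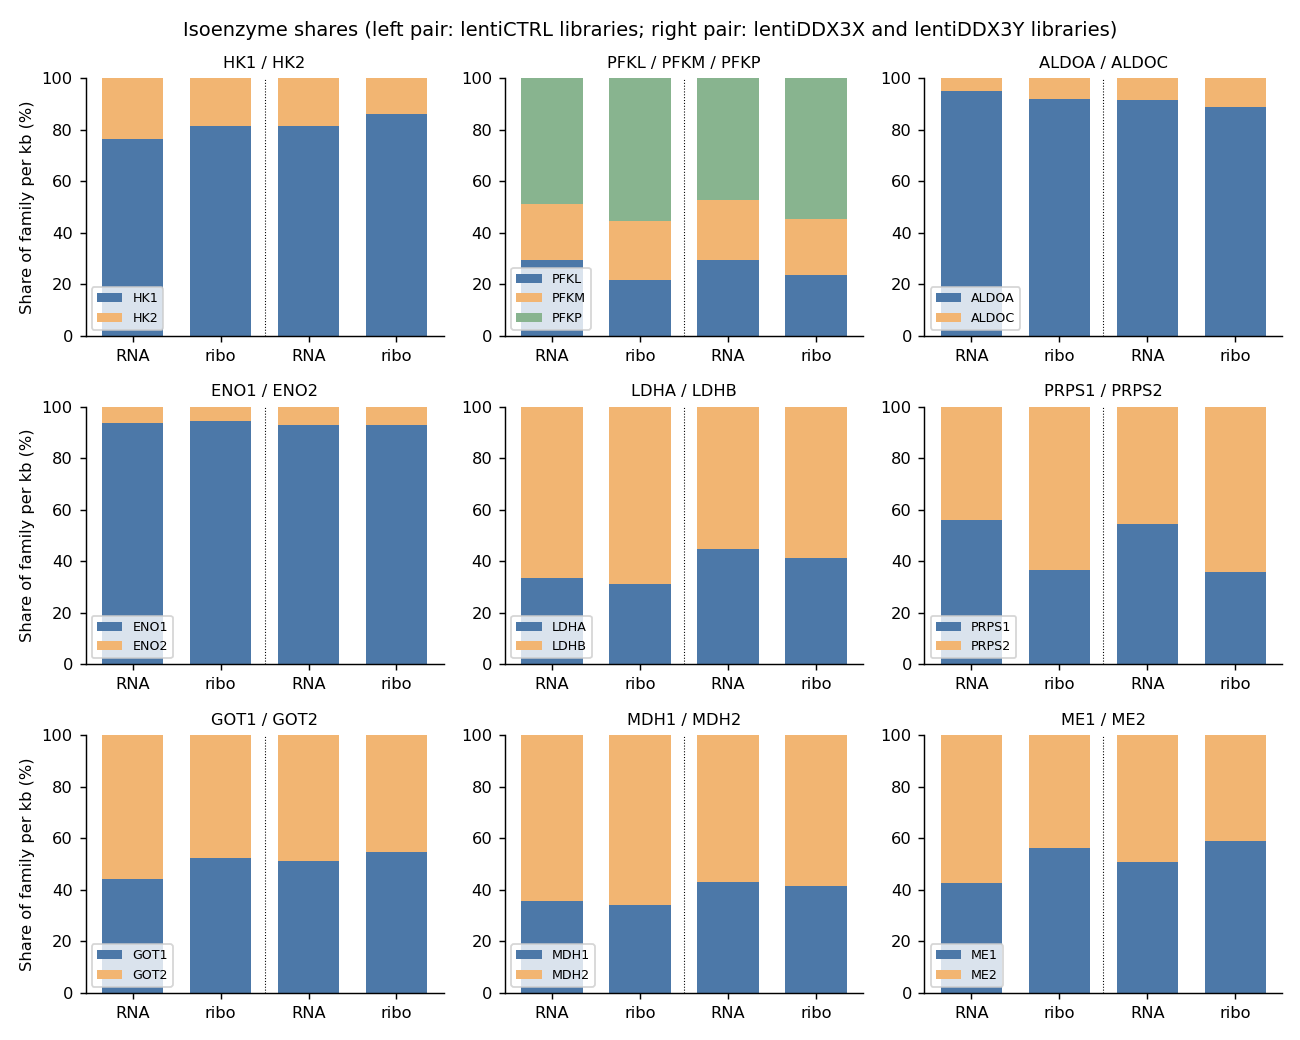
Share (%) of each gene in the summed RNA or ribo level of its isoenzyme family, per 1000 nt of coding sequence, with the lentiCTRL libraries as the left pair of bars and the lentiDDX3X and lentiDDX3Y libraries as the right pair. PRPS2 has a larger footprint than RNA share in both pairs, and ENO1 and MDH2 shares differ little between RNA and footprints within a pair.

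The TCA enzymes were less abundant than those of glycolysis and their footprint densities spanned a wide range. Their median RNA level per length stood at the 58.9th percentile in the lentiCTRL table and the 54.9th in the complemented table, and the ribo level at the 68.3rd and 59.5th. The median density was 0.59 over 27 enzymes, with 21 above 0 and 6 below, and 0.43 over 26 enzymes, with 23 above 0 and 3 below. The upper quartile of all genes was exceeded by 13 of 27 and 10 of 26.

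The pyruvate dehydrogenase complex, the entry of pyruvate into the cycle, had unequal densities among its subunits. PDHA1, the alpha subunit of the first component, had 1232 and 1167 RNA and 72.8 and 93.8 ribo, and densities of 0.37 ± 0.087 and 0.53 ± 0.077. PDHB, its beta subunit, had less RNA, 723 and 983, and more ribo, 87.4 and 109, in both tables. Its density, 1.40 ± 0.082 and 1.00 ± 0.073, was the highest of the TCA enzymes in each. Per 1000 nt of coding sequence, PDHB had 672 RNA and 81.2 ribo in the lentiCTRL table against 1053 and 62.2 for PDHA1. In the complemented table PDHB had 912 RNA and 102 ribo per 1000 nt against 997 and 80.2. Of the other components, DLAT, the acetyltransferase core, had 1322 and 1382 RNA, 86.9 and 99.2 ribo and densities of 0.52 ± 0.08 and 0.37 ± 0.075. DLD, the dihydrolipoamide dehydrogenase, had 1331 and 1544 RNA, 97.2 and 119 ribo and densities of 0.67 ± 0.076 and 0.48 ± 0.069. PDHX, the protein that binds DLD to the core, had 1031 and 1191 RNA and 46.4 and 75.1 ribo, with the lowest density of the complex, -0.02 ± 0.11 and 0.18 ± 0.086. PDHB took 16.9% ± 0.28 of the complex's RNA per length and 28.7% ± 1.2 of its footprints in the lentiCTRL table, and 20.6% ± 0.28 and 28.1% ± 1.1 in the complemented table. PDHX took 17.3% ± 0.25 of the complex's RNA and 10.9% ± 0.76 of its footprints in the lentiCTRL table, and 17.9% ± 0.24 and 13.8% ± 0.75 in the complemented table.

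Pyruvate dehydrogenase kinases switch the complex off, and those in the set, PDK1 and PDK3, were scarce. PDK1 had an RNA base mean of 285 and a ribo base mean of 10.2 in the lentiCTRL table, a density of -0.36 ± 0.23. PDK3 had 294 RNA and 10.4 ribo there, a density of -0.37 ± 0.23, and 369 and 23.5 in the complemented table, a density of 0.20 ± 0.15. PDK3 made up 52.5% ± 1 of the RNA and 52.2% ± 5.5 of the footprints of this pair in the lentiCTRL table. Both ribo values there lie just above the lowest value of the table, and none of these densities differs from 0 by more than 1.96 counting SE. PDK2, a kinase outside the set, was more abundant, with 731 and 950 RNA and 59.5 and 74.7 ribo. Its densities were 0.83 ± 0.097 and 0.50 ± 0.087.

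Citrate synthase opens the cycle, and it had the lowest footprint density of the TCA enzymes. CS had 2234 and 2254 RNA but 56.1 and 59.1 ribo, a density of -0.87 ± 0.097 and -1.08 ± 0.095. The pseudogene shown above carries most of its shared sequence, and 54.5% of the 28-nt windows and 25.3% of the 65-nt windows were found elsewhere. After division by the unshared shares, which can only raise a member, the density of CS was -0.15 and -0.37. Both are below 0, the former within 1.96 counting SE of it. ACO1, the cytosolic aconitase that doubles as an iron sensor, had 962 and 1186 RNA, 79.1 and 107 ribo and densities of 0.85 ± 0.084 and 0.70 ± 0.073.

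Isocitrate dehydrogenase makes oxoglutarate with NADP or NAD. IDH1, the cytosolic NADP enzyme, had 1742 and 2052 RNA, 128 and 159.8 ribo and densities of 0.69 ± 0.066 and 0.49 ± 0.059. IDH2, its mitochondrial counterpart, had 582 and 856 RNA, 33.3 and 62.2 ribo and densities of 0.32 ± 0.13 and 0.39 ± 0.095. The 3 subunits of the NAD enzyme lay close together in level. IDH3A, the catalytic subunit, had 81.7 and 96.6 ribo at 923 and 1067 RNA. IDH3B had 81.5 and 83.5 ribo at 1023 and 1207 RNA, and IDH3G had 75.7 and 92.5 ribo at 767 and 963 RNA. Their footprint shares in the lentiCTRL table were 35.6% ± 1.6, 33.7% ± 1.5 and 30.7% ± 1.5, a narrower range than their RNA shares of 35.4% ± 0.46, 37.3% ± 0.46 and 27.4% ± 0.42. In the complemented table the footprint shares were 36.9% ± 1.5, 30.3% ± 1.4 and 32.9% ± 1.4 and the RNA shares 34.3% ± 0.42, 36.9% ± 0.42 and 28.8% ± 0.39. IDH3G had the highest density of the 3, 1.11 ± 0.087 and 0.79 ± 0.079, followed by IDH3A at 0.95 ± 0.083 and 0.70 ± 0.077 and IDH3B at 0.80 ± 0.083 and 0.31 ± 0.082.

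The oxoglutarate dehydrogenase and succinyl-CoA ligase steps were of middling level. OGDH, the first component of the former, had 1607 and 2283 RNA, 111 and 143 ribo and densities of 0.59 ± 0.071 and 0.17 ± 0.062. DLST, its succinyltransferase core, had 977 and 1059 RNA, 70.9 and 74.1 ribo and densities of 0.67 ± 0.089 and 0.33 ± 0.087. DLST had 33.6% of its 28-nt windows elsewhere, and its densities after division by the unshared shares were 1.10 and 0.77. SUCLG1, the alpha subunit common to both succinyl-CoA ligases, had 585 and 569 RNA and 51.1 and 50.1 ribo. Its densities of 0.93 ± 0.11 and 0.66 ± 0.11 were above those of both beta subunits, either of which can pair with it. SUCLA2, the ADP-forming beta subunit, had 512 and 558 RNA, 28.5 and 37.9 ribo and densities of 0.28 ± 0.14 and 0.29 ± 0.12. SUCLG2, the GDP-forming one, had 579 and 587 RNA, 29.4 and 38.4 ribo and densities of 0.15 ± 0.14 and 0.23 ± 0.12. SUCLG1 had no shared window, against 35.8% for SUCLA2 and 48.8% for SUCLG2. After division by the unshared shares, SUCLA2 had densities of 0.79 and 0.80 and SUCLG2 of 0.70 and 0.78, which in the complemented table are above that of SUCLG1. This division cannot move SUCLG1 and can only raise the beta subunits, so the direction of the change is fixed. SUCLG2 made up 54.8% ± 0.75 and 53% ± 0.74 of the beta subunit RNA. It held 52.5% ± 3.3 and 52% ± 2.9 of the beta subunit footprints, within 1.96 counting SE of an equal share in both tables. Per unshared length its footprint share was 58.1% and 57.6%, more than 1.96 counting SE above an equal share, and its RNA share 59.7% and 57.9%.

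Fumarase and malate dehydrogenase complete the cycle. FH had 1166 and 960.5 RNA, 65.5 and 75.6 ribo and densities of 0.30 ± 0.092 and 0.50 ± 0.086. MDH2, the mitochondrial malate dehydrogenase, had the highest ribo base mean of the TCA enzymes, 389 and 365, at 3959 and 3853 RNA. MDH1, the cytosolic form of the malate-aspartate shuttle, had 2167 and 2883 RNA and 199 and 254 ribo. The densities were 1.10 ± 0.038 and 0.77 ± 0.04 for MDH2 and 1.01 ± 0.053 and 0.66 ± 0.047 for MDH1, and MDH2 held 64.4% ± 0.31 of RNA and 65.9% ± 0.98 of footprints in the lentiCTRL table. Its shares in the complemented table were 56.9% ± 0.3 and 58.6% ± 0.99.

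Malic enzymes and the glutamate reactions link the cycle to NADPH and amino acids. ME1, the cytosolic malic enzyme, had 1262 and 1208 RNA, 75.2 and 77.1 ribo and densities of 0.38 ± 0.086 and 0.20 ± 0.085. ME2, a mitochondrial malic enzyme, had 1726 and 1195 RNA and 59.7 and 54.7 ribo, with densities of -0.40 ± 0.095 and -0.28 ± 0.1 among the 3 lowest of the TCA enzymes in both tables. ME1 therefore held 42.7% ± 0.45 of the RNA and 56.3% ± 2.1 of the footprints in the lentiCTRL table, and 50.8% ± 0.51 and 59% ± 2.1 in the complemented table. ME2 shared 16.3% of its 28-nt windows with other loci, and per unshared length ME1 held 51.8% and 54.6% of the footprints against 42.7% and 50.8% of the RNA, in the complemented table a difference within 1.96 counting SE. GLUD1, glutamate dehydrogenase, had 1638 and 1646 RNA and 62.1 and 72 ribo. Its densities of -0.27 ± 0.093 and -0.35 ± 0.087 were below the median gene, and 59.7% of its 28-nt windows were found elsewhere, most of them in GLUD2, an intronless protein-coding paralog on the X chromosome. After division by the unshared shares, which can only raise a member, its densities were 0.36 and 0.28 against the uncorrected median gene. GOT1, the cytosolic aspartate aminotransferase, had 1252 and 1619 RNA, 142 and 177 ribo and densities of 1.31 ± 0.064 and 0.97 ± 0.057, the second highest of the TCA enzymes. GOT2, the mitochondrial form, had 1636 and 1611 RNA, 135 and 152 ribo and densities of 0.85 ± 0.065 and 0.76 ± 0.061. GOT1 went from 44.4% ± 0.46 of the RNA to 52.2% ± 1.5 of the footprints in the lentiCTRL table and from 51.1% ± 0.44 to 54.7% ± 1.4 in the complemented table. GOT2 shared 18.4% of its 28-nt windows with other loci and GOT1 none. Per unshared length GOT1 held 47.1% and 49.6% of the footprints against 44.4% and 51.1% of the RNA. By that measure its footprint share was above its RNA share in the lentiCTRL table and below it in the complemented table. Both differences were within 1.96 counting SE.

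Enzymes with more sequence shared with other loci had lower footprint densities across the set. Of the 52 enzymes, 21 had no 28-nt window elsewhere in hg38, and 20 had over 10% of their windows elsewhere, 8 of them in glycolysis, 3 in the pentose phosphate pathway and 9 in the TCA cycle. The 20 enzymes over 10% had a median density of 0.29 in the lentiCTRL table and 0.19 in the complemented table. The other 32 and 31 had medians of 0.74 and 0.48. The 6 enzymes over 50% were GAPDH, TPI1, GLUD1, CS, RPE and LDHA, whose densities lay between -0.87 and 0.32 and between -1.26 and 0.11. Spearman's rho of density with the share of windows found elsewhere was -0.41 (n = 52 enzymes) and -0.48 (n = 51), given as a description across genes of the same libraries. PFKFB3 had 0.59% and PDHX, PDK1 and PDK3 none of their windows elsewhere, and these 4 had densities below 0 in the lentiCTRL table, those of PDHX, PDK1 and PDK3 within 1.96 counting SE of 0. In the complemented table PFKFB3, PDHX and PDK3 were above 0, and the lowest density among members with no shared window was 0.09. The part of shared sequence in these densities was not tested, since the reads themselves were not analysed here.

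**Figure D4:**
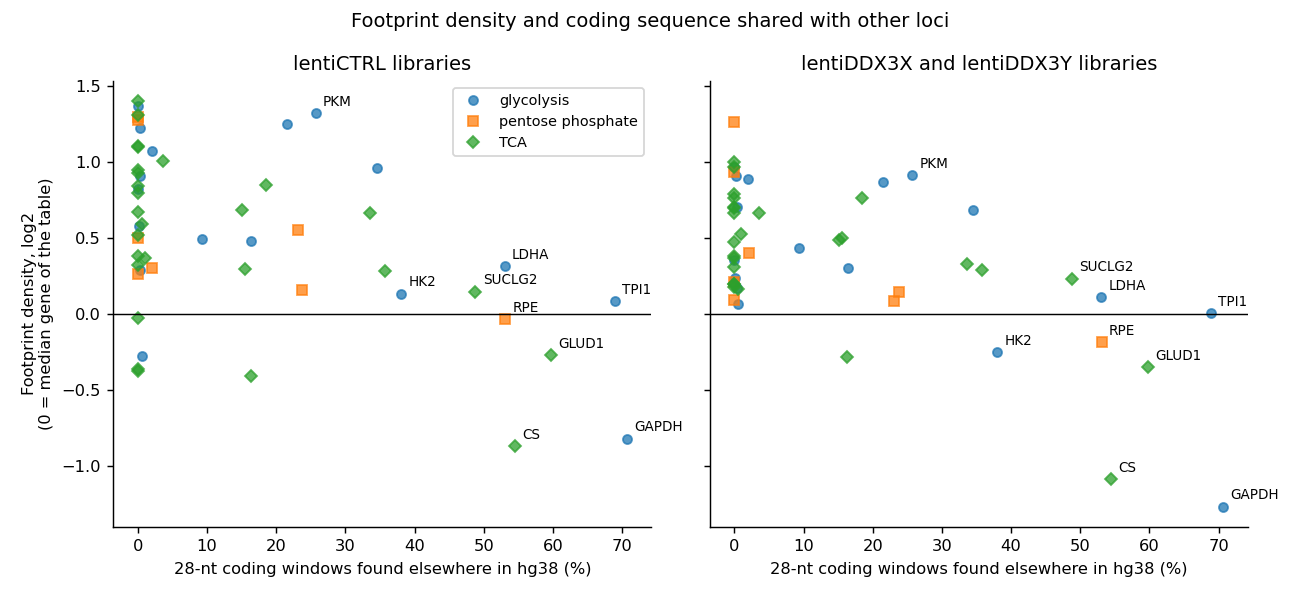
Footprint density (y, log2, 0 is the median gene) against the share of 28-nt coding windows found elsewhere in hg38 (x, %) for each enzyme, in the lentiCTRL libraries (left) and the lentiDDX3X and lentiDDX3Y libraries (right). The 6 enzymes over 50% lie at densities of 0.32 or less on the left and 0.11 or less on the right.

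GC content of the 5′ leader, a feature tied to dependence on DDX3X, had a weak relation with density in the set, as over all genes. Spearman's rho was -0.19 over 51 enzymes in the lentiCTRL table and -0.11 over 50 in the complemented table, and -0.19 and -0.11 over all genes with a leader of sufficient length. The median GC of the leader was 67.6% for the glycolytic, 74.2% for the pentose phosphate and 66.0% for the TCA enzymes found in the lentiCTRL table.

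Of 25 other genes of glucose uptake, glycolysis and lactate export, 11 had a row in the lentiCTRL table, with a median density of 0.57, 8 above 0 and 3 below. Of the same list, 10 had a row in the complemented table, with a median of 0.29, 8 above and 2 below. SLC2A1, the main glucose transporter, had 2793 and 5393 RNA and 283 and 518 ribo, densities of 1.15 ± 0.045 and 0.79 ± 0.033. The lactate exporter SLC16A3 had 5701 and 7005 RNA and 507 and 686 ribo, densities of 0.96 ± 0.033 and 0.82 ± 0.029. SLC16A1, another monocarboxylate transporter, had the highest density of this list in the lentiCTRL table, 1.29 ± 0.055. Of 7 other pentose phosphate and ribose genes, 5 had a row in each table, with median densities of 0.0028 and 0.27. H6PD, the hexose phosphate dehydrogenase of the endoplasmic reticulum, was lowest in both, at -1.35 ± 0.21 and -0.25 ± 0.13. Of 19 other TCA genes, 14 and 10 had a row, with median densities of 0.27 and 0.23. SDHB, the iron-sulfur subunit of succinate dehydrogenase, had 149 and 167 ribo at 1504 and 1642 RNA and densities of 1.11 ± 0.062 and 0.88 ± 0.059, and SDHA, its flavoprotein, had 67.3 and 85.9 ribo at 1226 and 1523 RNA and densities of 0.26 ± 0.09 and 0.02 ± 0.08.

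Between the tables the enzymes mostly kept their side of 0, and the share of all genes that did so was not computed. Of the 51 enzymes in both, 42 lay above 0 in both tables, 5 lay below 0 in both and 4 lay on opposite sides. Those below in both were GAPDH, RPE, CS, ME2 and GLUD1, each with over 10% of its windows elsewhere. After division by the unshared shares, CS and ME2 lay below 0 in both tables and GAPDH, RPE and GLUD1 above 0 in both. ME2, at -0.15 and -0.02, and CS in the lentiCTRL table, at -0.15, were within 1.96 counting SE of 0. The division was made for the members alone and can only raise them against the uncorrected median gene. HK2, PDHX, PDK3 and PFKFB3 lay on opposite sides, and PDK3 had the largest difference, 0.57. The median absolute difference in density between the tables was 0.21 for the enzymes and 0.22 for the 7386 genes in both tables. The treatment (DMSO in part of the lentiCTRL libraries alone), the introduced cDNA and the cell populations all differ between the tables. So do the normalization and the lower limit on ribo base means, and these differences cannot be told apart.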

How the data were processed

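Per the labels and the study's methods, footprint reads were trimmed and UMI-collapsed, reads on rRNA and small RNAs were discarded, and reads longer than 24 nt were mapped to hg38 with STAR and counted on coding sequences with Ribo-seQC. STAR 2.6.0a, Bowtie2 and cutadapt are listed in the submitters' processing notes. The deposited base means are a normalized signal: the authors divided counts by DESeq2 size factors and averaged them over the libraries of a comparison. The remaining columns of both tables hold the authors' own log2 fold changes, adjusted p-values and classes for RNA, ribo and TE, and were not used here. No test between conditions was therefore made, and the base means give neither replicate spread nor depth per library.

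Coding lengths and 5′ leaders came from canonical transcripts of GENCODE 44 (8693 of 8704 genes matched by gene ID). Every 28-nt window (footprint) and 65-nt window (RNA read) of the members' coding sequences was searched on both strands of hg38 outside the gene itself. Density, isoenzyme shares per 1000 nt with delta-method counting errors, and percentiles were computed with numpy 2.4.6 and pandas 2.3.3 and tested on simulated data. Every member found was named once in pathway order, with full values for isoenzyme families, complexes and the 3 highest and lowest densities of a pathway. The members are a list of symbols, and this list and the others were proposed with earlier results of these data known.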

Additional observations from a re-analysis of the deposited data

How the results depend on the processing

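Median footprint densities stayed above 0 under every alternative run except 1. Division by the share of unshared windows can only raise a member, so it could not have taken a median below 0. In the lentiCTRL table the glycolytic median of 0.58 became 0.44 with base means above 20, 0.28 with ribo base means above 100, 0.70 when centered on other genes in the members' RNA range and 0.82 without members that share over 10% of windows. The complemented median of 0.36 became 0.11 with ribo above 100, 0.44 with that centering and 0.43 without those members. With ribo above 100, the pentose phosphate medians of 0.40 and 0.18 became 0.014 and -0.23, over 3 enzymes each, and the lentiCTRL TCA median of 0.59 became 0.39. Without members that share over 10% of windows the complemented pentose phosphate median was 0.41. The cause of these moves was not tested, though each of these filters changes which genes enter.

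Both remaining alternatives were chosen after seeing the data. Centered on the 500 genes nearest in RNA base mean, the glycolytic medians were 1.28 and 0.95, the pentose phosphate median 0.69 in the lentiCTRL table and the TCA median 0.85 there. With base means divided by the share of unshared windows, the glycolytic medians were 0.92 and 0.71, the pentose phosphate medians 0.64 and 0.47 and the complemented TCA median 0.68. Of 50 isoenzyme shares, 21 moved by more than 1.96 counting SE when shared windows were left out of the length and 12 without division by length. Of 206 level percentiles, 94 moved by over 5 points without division by length. No paired analysis was possible because the base means used hold 1 value over all libraries of a table; no value per gene and replicate was used, so none could be left out.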

Other observations

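PDP1, the phosphatase that reactivates pyruvate dehydrogenase, was singled out after its values were seen. Its RNA base mean was 22056 in the lentiCTRL table and 21606 in the complemented table, and its ribo base mean was 1206 and 1111. PKM, the pyruvate kinase gene, had RNA base means of 21843 and 31674. PDP2, the other catalytic subunit of this phosphatase, had RNA base means of 449 and 499 and ribo base means of 17.2 and 29.5. The footprint density of PDP1 was 0.26 in the lentiCTRL table and -0.11 in the complemented table.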
